A study of Gallus gallus with 6 samples.

Results

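The 8 genes UNG, RAD51B, RAD51C, RAD51D, XRCC2, XRCC3, RAD52 and POLH encode part of the machinery by which chicken B cells change their immunoglobulin genes after an initial rearrangement. They were taken by gene symbol from the annotation of an Affymetrix chicken array, which gave 15 probe sets carrying a single one of these symbols, of 38439 probe sets and 13009 named genes tested. RNA came from cells of the bursa of Fabricius of line 0 chickens aged 3 weeks, kept overnight on an adherent layer of DF1 cells, a chicken fibroblast line. The SCA2 group (3 arrays) had lain on DF1 cells expressing a Flag-tagged stem cell antigen 2, and the control group (3 arrays) on DF1 cells carrying the vector. All cultures shared the same birds' line and age, 2000000 bursal cells plated, medium with 4% serum, 37 °C and 5% CO2, and the bursal cells were recovered by washing. The titles call each array a biological replicate. The labels do not say whether the expressing DF1 cells were 1 clone, or whether each culture had birds of its own. The p-values therefore speak only of differences among these arrays and may hold technical variation. Values of probe sets are log2 intensities throughout.

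In the bursa, B cells diversify the immunoglobulin locus mainly by gene conversion, in which stretches of upstream pseudogenes are copied into the rearranged variable gene. The process starts when activation-induced deaminase turns cytosine into uracil. UNG, uracil-DNA glycosylase, removes that uracil and leaves an abasic site, which can then be repaired from a homologous template or copied by an error-prone polymerase. RAD51B, RAD51C, RAD51D, XRCC2 and XRCC3 are related ATPase-family proteins that assist homologous recombination at single-stranded DNA, RAD52 anneals DNA strands, and POLH is the translesion polymerase eta. In the chicken B cell line DT40, loss of several of these 5 proteins is known to turn gene conversion into point mutation. The deaminase gene was not analysed here.

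Of the 15 probe sets 2 were higher and 5 were lower on the SCA2 arrays at an adjusted p under 0.05 in limma, and 8 did not pass. Over the whole array 35.3% of probe sets passed, 18.2% higher and 17.1% lower. The 7 called of 15 are a larger share, but in so few probe sets this is no result about the 8 genes as a group. After centring on the array median 2 of the 15 were higher and 3 lower, beside 7455 and 5738 of all 38439 probe sets. When each gene was represented by its probe set of highest mean, 6 of the 8 genes passed, RAD52 and RAD51B higher and POLH, UNG, XRCC3 and RAD51D lower, and RAD51C and XRCC2 did not. The same rule called 47.0% of all named genes, 26.2% higher and 20.8% lower. The groups did not overlap in 7 of the 15 probe sets, against 48.9% of all probe sets. A change of 2-fold or more was found in RAD52 and POLH, in opposite directions. The median change of the 8 genes was -0.19 on the log2 scale, against -0.01 for all named genes.

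**Figure D1:**
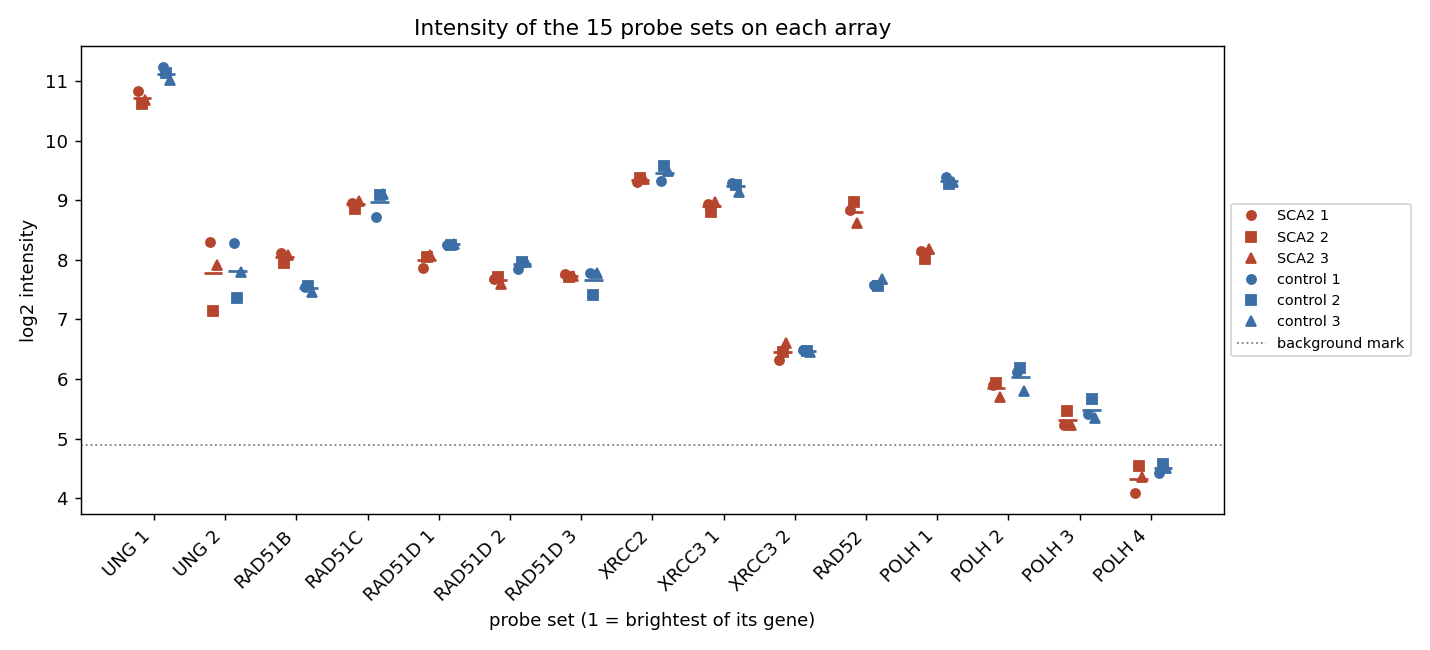
Log2 intensity (vertical axis) of the 15 probe sets on each array, with SCA2 arrays in red to the left of control arrays in blue and a bar at each group mean of 3. RAD52 is higher on all SCA2 arrays, the first POLH probe set is lower on all of them, and the second UNG probe set spreads widely in both groups.

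Deposited intensities ran from 4.28 to 20715, and the arrays' medians lay between 51.2 and 53.1. Background was marked at a log2 intensity of 4.90, under which 95% of the values of 689 probe sets fell. These were picked by the start of their names, and whether they lack signal was not tested. All arrays of 14 member probe sets lay above the background mark. The deposited levels are relative to the rest of each array, and fewer cells of a type and less RNA per cell cannot be told apart in them. Markers of the cells present moved between the groups: 14 of 16 B cell markers were lower on the SCA2 arrays and 0 higher (median -1.40), and their summed intensity was 11271 to 13834 on the SCA2 arrays against 31513 to 33005 on the control arrays. Lower markers were also counted for T and NK cells (11 of 12, summed intensity 3699 to 3778 on the SCA2 arrays against 9368 to 10934 on the control arrays), macrophages and dendritic cells (9 of 12, 4325 to 6550 on the SCA2 arrays against 14152 to 17919 on the control arrays) and epithelium (8 of 9, 3661 to 7803 on the SCA2 arrays against 12127 to 21602 on the control arrays), each with 0 higher. Of 14 fibroblast markers 10 were higher and 2 lower (summed intensity 44563 to 45390 on the SCA2 arrays against 27437 to 28546 on the control arrays). CD2 and TLR4 were the markers that lay below the background mark on every array. The 27 probe sets of the spiked hybridization controls changed by a mean of -1.43. The part of any of these in the changes below was not tested. Whether the arrays also hold RNA of the DF1 layer was not tested. Such RNA could not be told apart from that of the bursal cells.

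UNG, which opens the repair path by cutting out uracil, was lower on the SCA2 arrays by its brightest probe set. That probe set (Gga.4682.1.S2_at) gave 10.84, 10.62 and 10.68 on SCA2 arrays 1 to 3, against 11.24, 11.13 and 11.02 on control arrays 1 to 3. Every SCA2 array lay below every control array, and the gap between the groups, between SCA2 1 and control 3, was small. UNG changed by -0.41 (SE 0.09, 95% interval -0.64 to -0.19; limma, Benjamini-Hochberg adjusted p = 0.0129), a 1.33-fold lower level. The call was lost without SCA2 3 (adjusted p = 0.0526).

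The second UNG probe set (Gga.4682.1.S1_at) did not show this difference. It gave 8.30, 7.13 and 7.92 on the SCA2 arrays, against 8.28, 7.35 and 7.80 on the control arrays. In both groups array 1 was the brightest and array 2 the dimmest, and the control values lay within the SCA2 range. The change was -0.02 (SE 0.33; adjusted p = 0.963), with a 95% interval from -0.80 to 0.75 that includes the change of the first probe set. Within arrays, the changes of both UNG probe sets differed by -0.39 (exact permutation test, two-sided, p = 0.4). When the UNG probe sets were averaged, the change was -0.22 (limma, Benjamini-Hochberg adjusted p = 0.394).

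These 5 recombination genes were split. RAD51B was higher, XRCC3 and RAD51D were lower, and RAD51C and XRCC2 did not pass the test. RAD51B, RAD51C, RAD51D and XRCC2 form one complex, and RAD51C and XRCC3 form another.

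RAD51B, an ATPase subunit of the larger complex, was the one of the 5 that rose. Its probe set (GgaAffx.5975.1.S1_at) gave 8.12, 7.94 and 8.07 on the SCA2 arrays, against 7.55, 7.57 and 7.46 on the control arrays. The groups were well apart, since the lowest SCA2 array lay above the highest control array by more than the range within either group. The change was 0.52 (SE 0.08, 95% interval 0.33 to 0.71; limma, Benjamini-Hochberg adjusted p = 0.00226), a 1.43-fold higher level. It passed under all 16 alternative settings, between 0.43 and 0.57.

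RAD51C, the subunit common to both complexes, gave 8.96, 8.86 and 8.98 on the SCA2 arrays, against 8.72, 9.10 and 9.10 on the control arrays (GgaAffx.3166.1.S1_at). Control 1 lay below all SCA2 arrays while the other control arrays lay above them. The change was -0.04 (SE 0.12; adjusted p = 0.829), and its 95% interval of -0.32 to 0.24 leaves room for a modest change in either direction. XRCC2, the subunit that partners RAD51D, gave 9.30, 9.38 and 9.36 on the SCA2 arrays, against 9.33, 9.57 and 9.49 on the control arrays (Gga.12290.1.S1_at). Here too control 1 was the lowest control array and fell within the SCA2 range. XRCC2 changed by -0.12 (SE 0.09, 95% interval -0.32 to 0.09; adjusted p = 0.338).

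XRCC3, the partner of RAD51C in the smaller complex, was lower by its brighter probe set. That set (Gga.3684.1.S1_s_at) gave 8.93, 8.81 and 8.97 on the SCA2 arrays, against 9.30, 9.26 and 9.14 on the control arrays. The groups did not overlap. Its change was -0.33 (SE 0.08, 95% interval -0.53 to -0.14; limma, Benjamini-Hochberg adjusted p = 0.0185), a 1.26-fold lower level, and the call was lost without SCA2 1 (adjusted p = 0.0517) or SCA2 2 (0.0573). The dimmer XRCC3 probe set (GgaAffx.11661.1.S1_at) read 6.31, 6.46 and 6.60 on the SCA2 arrays, against 6.49, 6.48 and 6.46 on the control arrays. Its SCA2 arrays lay on both sides of the control arrays, and the change was -0.02 (95% interval -0.23 to 0.20; adjusted p = 0.906). That interval does not include the change of the brighter set. Within arrays, the changes of both XRCC3 probe sets differed by -0.31 (exact permutation test, two-sided, p = 0.1, the smallest possible with these arrays).

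RAD51D was measured by 3 probe sets, of which 2 were lower and 1 was not called. The brightest (Gga.9680.1.S1_x_at) gave 7.87, 8.04 and 8.08 on the SCA2 arrays, against 8.26, 8.26 and 8.27 on the control arrays. A second set (Gga.9680.1.S1_a_at) had 7.68, 7.71 and 7.60 on the SCA2 arrays, against 7.84, 7.97 and 7.96 on the control arrays. Neither showed overlap between the groups, and both are designed on one and the same sequence record, so they are not separate evidence. Their changes were -0.27 (SE 0.08; adjusted p = 0.0412) and -0.26 (SE 0.08; adjusted p = 0.0343). The third set (Gga.9680.3.S1_a_at), from another sequence record of the gene, had 7.76, 7.71 and 7.72 on the SCA2 arrays, against 7.77, 7.41 and 7.79 on the control arrays. Control 2 was the lowest there and the other control arrays the highest, with a change of 0.07 (95% interval -0.19 to 0.34; adjusted p = 0.653). That interval does not include the change of the brightest set. Within arrays, the brightest and the third set differed in change by -0.34 (exact permutation test, two-sided, p = 0.1, the smallest possible with these arrays). The call of the brightest set was lost under 10 of 16 alternative settings, which included leaving out each of the 6 arrays in turn, within an adjusted p range of 0.0182 to 0.137, so the fall of RAD51D stands close to the threshold.

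Differences between these 5 genes were also taken within arrays, where a constant scale of an array cancels. The log ratio of RAD51B to each of the others was higher on all SCA2 arrays than on any control array. For XRCC3 and RAD51D this had to be so, since each gene by itself separated the groups, in the direction opposite to RAD51B. Those ratios and their exact tests are no evidence beyond the single genes. RAD51B exceeded XRCC3 in change by 0.85, RAD51D by 0.79, XRCC2 by 0.64 and RAD51C by 0.56 on the log2 scale. For each of these the exact two-sided permutation test gave p = 0.1, the smallest that 3 against 3 arrays allow, and adjusted over all 28 pairs of the 8 genes p = 0.133 (Benjamini-Hochberg, exact tests). RAD51D and XRCC3 differed in change by 0.07 with overlapping groups (exact permutation p = 0.7). RAD51C and XRCC2 differed by 0.08, also with overlap (exact permutation p = 0.4).

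**Figure D2:**
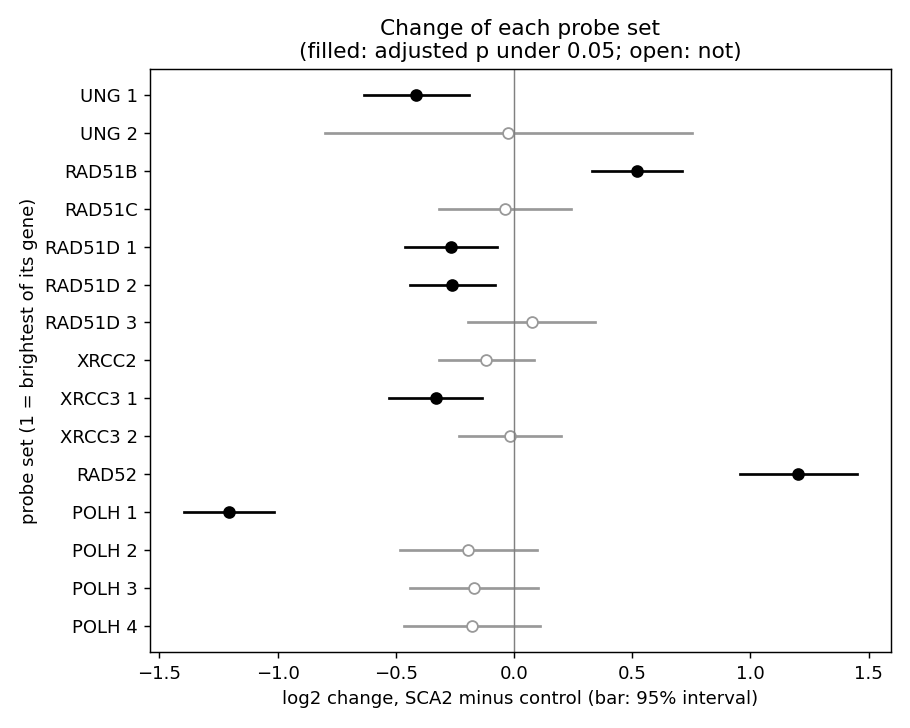
Log2 change, SCA2 minus control (horizontal axis), of each of the 15 probe sets with its 95% interval from limma, 3 arrays a group. Filled points passed an adjusted p of 0.05: RAD52 and RAD51B lie to the right of 0, and the first POLH, UNG and XRCC3 probe sets and 2 of RAD51D to the left.

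RAD52, which anneals complementary strands and in yeast is a main mediator of recombination, rose most of the 8 genes. Its only probe set (Gga.885.1.S1_at) gave 8.84, 8.97 and 8.61 on the SCA2 arrays, against 7.58, 7.56 and 7.68 on the control arrays. The control arrays lay close together, and the lowest SCA2 array was far above them. The mean was 8.81 ± 0.18 on the SCA2 arrays and 7.60 ± 0.06 on the control arrays (SD, n = 3 each). RAD52 changed by 1.20 (SE 0.11, 95% interval 0.96 to 1.45; limma, Benjamini-Hochberg adjusted p = 1.7e-04), a 2.30-fold higher level. Under all 16 alternative settings it passed, with changes between 1.10 and 1.30. Within arrays its change exceeded that of RAD51B by 0.68 and that of XRCC3 by 1.53, with no overlap between groups in either log ratio (exact permutation p = 0.1 each). For XRCC3 the lack of overlap was given in advance, since both genes separated the groups by themselves in opposite directions.

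POLH, the polymerase that copies past ultraviolet damage and in mammals introduces mutations at A and T bases of immunoglobulin genes, fell most, by 1 of its 4 probe sets. That set (Gga.7127.1.S1_s_at) gave 8.15, 8.01 and 8.18 on the SCA2 arrays, against 9.39, 9.27 and 9.30 on the control arrays. The groups were separated by far more than their spread, with means of 8.11 ± 0.09 on the SCA2 arrays and 9.32 ± 0.06 on the control arrays (SD, n = 3 each). The change was -1.21 (SE 0.08, 95% interval -1.40 to -1.01; limma, Benjamini-Hochberg adjusted p = 6.5e-05), a 2.31-fold lower level. In Affymetrix naming the ending s_at marks a set whose probes match more than 1 transcript, which can include transcripts of another gene. The brighter XRCC3 set has the same ending. Whether the probes of these sets match another gene was not checked, nor was it for the brightest RAD51D set, which ends in x_at.

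The other POLH probe sets were dim and did not pass. The first of them (GgaAffx.6516.1.S1_at) read 5.89, 5.94 and 5.69 on the SCA2 arrays, against 6.12, 6.18 and 5.80 on the control arrays. The next (GgaAffx.21759.1.S1_at) read 5.23, 5.46 and 5.22 on the SCA2 arrays, against 5.42, 5.67 and 5.34 on the control arrays. Both had the SCA2 mean below the control mean, and in both the groups overlapped. Their changes were -0.19 (95% interval -0.48 to 0.10; adjusted p = 0.271) and -0.17 (95% interval -0.44 to 0.10; adjusted p = 0.296). The last set (Gga.7127.2.S1_at) lay between 4.09 and 4.58 on all 6 arrays, below the background mark, and its change of -0.18 did not pass (adjusted p = 0.307). Within arrays the brightest POLH set changed by -1.01 relative to the first of these and by -1.04 relative to the next, with no overlap between groups (exact permutation p = 0.1 each). Averaged over its 4 probe sets POLH changed by -0.44 and passed (limma, Benjamini-Hochberg adjusted p = 0.00292). That average includes the brightest set and is no evidence apart from it.

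The gap between RAD52 and POLH was the widest among the 28 pairs of genes. Their log ratio within arrays was higher by 2.41 on the SCA2 arrays. Relative to the control mean that ratio lay between 2.15 and 2.67 on the SCA2 arrays, against -0.10 to 0.09 on the control arrays (exact permutation p = 0.1). That separation followed from the opposite changes of both genes, each without overlap, and is no evidence beyond them. UNG stood between them, with a change 0.79 above that of POLH and 1.62 below that of RAD52. In 21 of the 28 pairs the log ratios of the groups did not overlap. The pairs reuse 8 genes, of which 6 had no overlap by themselves, as had 7977 of 13009 named genes. A rate for pairs of other genes was not computed, so this count is no result about the 8 genes.

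**Figure D3:**
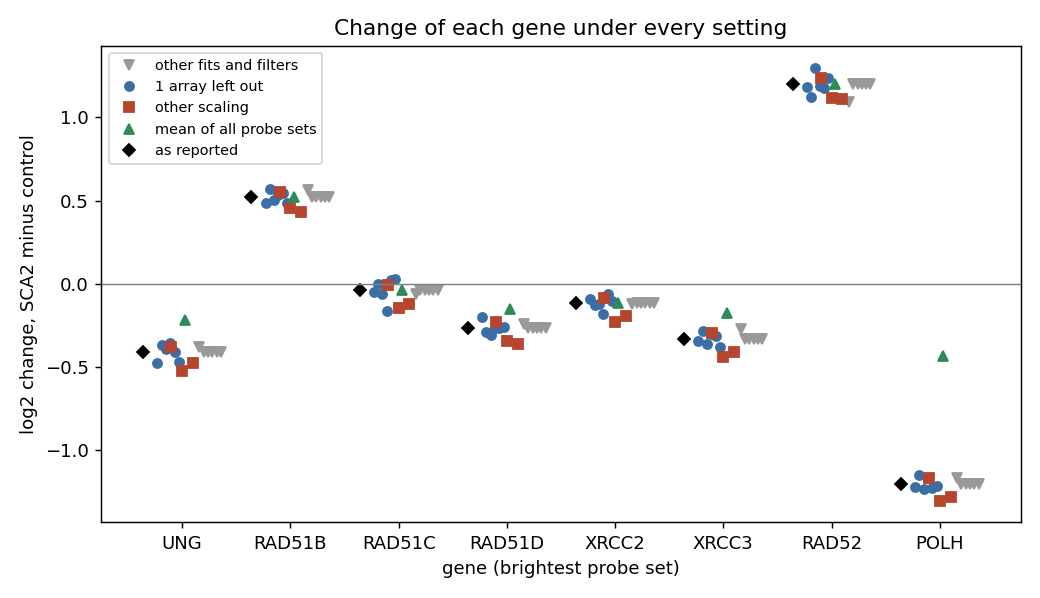
Log2 change of each gene's brightest probe set (vertical axis) as reported, with 1 array left out, under 3 other scalings, as the mean of all the gene's probe sets, and under other fits and filters. RAD52 and RAD51B stay above 0 and POLH, UNG, XRCC3, RAD51D and XRCC2 below it in all of them, while RAD51C lies on both sides.

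Each called gene was set beside 178 other genes of repair, checkpoint and cell cycle lists by the root mean square difference of log2 profiles, centred on the control mean, over the 6 arrays. This measure is a description with no test, and it mostly reflects the size of the group difference. The profile closest to that of RAD52 was that of FANCA (0.07), a core subunit of the Fanconi complex that acts on crosslinked DNA, followed by FAAP24 (0.10), another subunit. FANCA stood at 1.15, 1.27 and 1.00 above its control mean on SCA2 arrays 1 to 3, and RAD52 at 1.24, 1.36 and 1.01. Both were highest on SCA2 2 and lowest on SCA2 3. POLH was closest to POLL (0.15), polymerase lambda of end joining, and NEIL1 (0.15), a glycosylase for oxidised bases. For RAD51B they were MCM5 (0.06), of the replicative helicase, and MSH6 (0.07), of mismatch recognition. UNG was nearest to DNTT (0.09), which lay below the background mark on all arrays, and ORC1 (0.11). XRCC3 was closest to FANCE (0.07), a gene of the Fanconi list that changed by -0.34, followed by OGG1 (0.08), a glycosylase for oxidised guanine. RAD51D was closest to OGG1 (0.05), followed by POLB (0.05).

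**Figure D4:**
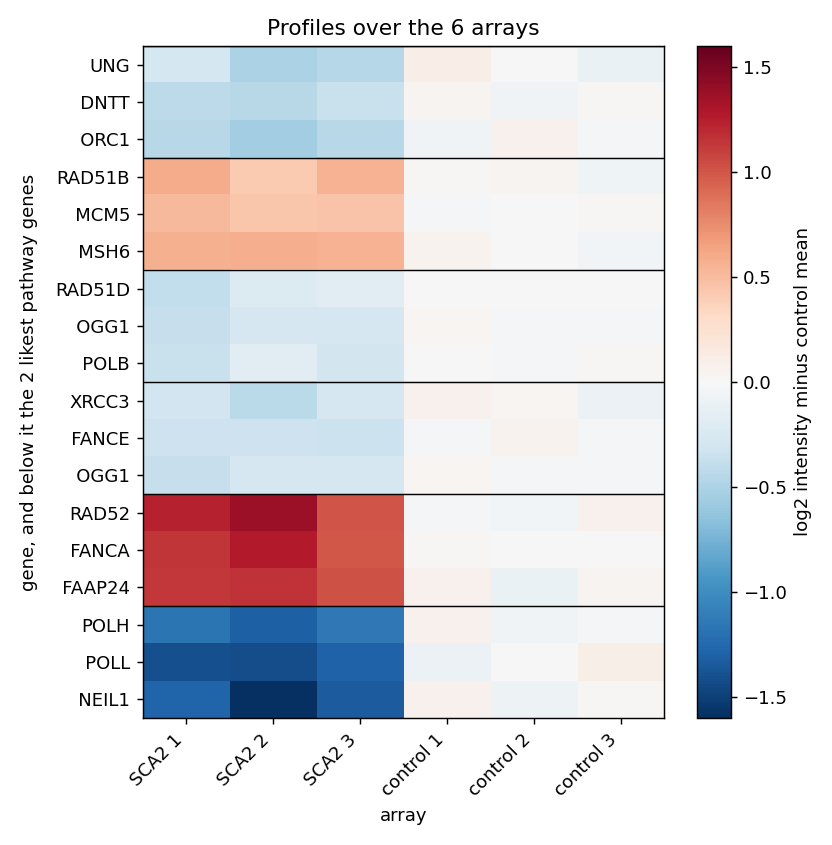
Log2 intensity minus the control mean (colour) on each array for the 6 called genes, each with the 2 pathway genes of closest profile below it, SCA2 arrays left and control arrays right. RAD52, FANCA and FAAP24 lie between 1.00 and 1.36 on every SCA2 array, and POLH, POLL and NEIL1 between -1.61 and -1.14.

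Partners of the 8 genes were counted on lists with 1 probe set per gene, beside the rates for all named genes given above. Among 40 partners in homologous recombination 19 were higher and 5 lower, with a median of 0.24. RECQL5, among the lower ones, lay below the background mark on all arrays. The exonuclease gene EXO1 rose by 0.91 (SE 0.14; limma, Benjamini-Hochberg adjusted p = 0.00238). BRCA1, which promotes end resection, rose by 0.51. SLX4, a nuclease scaffold, fell by 0.82, RMI2, which works with the BLM helicase, fell by 0.70, and MND1, a meiotic cofactor, fell by 1.11. BRCA2, a mediator of recombination in vertebrates, had a mean of 8.76 ± 0.03 on the SCA2 arrays and 9.12 ± 0.28 on the control arrays, a change of -0.36 that did not pass (adjusted p = 0.0849). The split moved with the scaling: 12 were higher and 9 lower after a second quantile normalization, and 13 and 9 after cyclic loess. With fewer arrays in the fit the calls fell, to 11 and 4 without SCA2 1 and 12 and 4 without SCA2 3. The medians were then 0.23 and 0.24. Calls among all named genes also fell, from 3410 higher and 2701 lower to 2683 and 1955 without SCA2 1 and 2732 and 2059 without SCA2 3. In the Fanconi list 6 of 12 were higher and 1 lower (median 0.37), among them FANCA (1.14) and FAAP24 (1.10), and these counts were the same under all 3 other scalings. Without SCA2 1 the Fanconi list had 4 higher and a median of 0.20, and without SCA2 3 it had 4 higher and a median of 0.35.

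Among 17 genes of uracil and base excision repair 5 were higher and 6 lower (median -0.15). TDG, a glycosylase that like UNG can remove uracil, fell by 0.95 (SE 0.07; limma, Benjamini-Hochberg adjusted p = 9.7e-05). SMUG1, another uracil glycosylase, changed by -0.05 and did not pass (adjusted p = 0.735). NEIL1 fell by 1.41 and NEIL3, above the background mark on 2 arrays only, by 1.04, while NTHL1 rose by 0.52. After cyclic loess 4 of this list were higher and 9 lower, and without SCA2 3 the counts were 3 and 5. Of 18 genes of translesion synthesis and PCNA ubiquitination 3 were higher and 2 lower (median 0.01), and 2 and 4 after a second quantile normalization or cyclic loess. In this list DTL rose by 0.88, and POLN, among the lower ones, lay below the background mark on all arrays. REV1, a scaffold for translesion polymerases that is needed for immunoglobulin mutation in DT40 cells, fell by 0.52 (SE 0.07; limma, Benjamini-Hochberg adjusted p = 0.0016). RAD18, the ligase that marks PCNA for them, rose by 0.39 (SE 0.07; adjusted p = 0.00489).

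**Figure D5:**
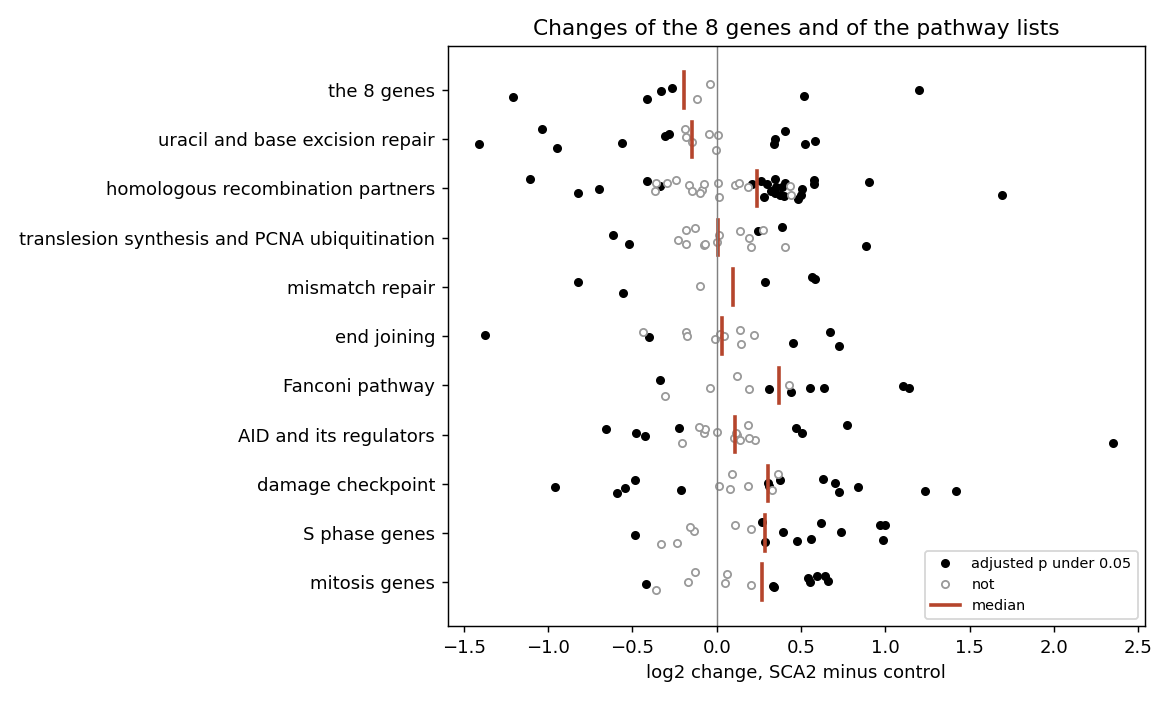
Log2 change, SCA2 minus control (horizontal axis), of the 8 genes and of each gene of 10 pathway lists, 1 probe set per gene, with the median as a red bar and filled points for an adjusted p under 0.05. The medians lie between -0.19 for the 8 genes and 0.37 for the Fanconi list.

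Mismatch repair had 3 of 6 genes higher and 2 lower. End joining had 3 of 14 higher and 2 lower, with POLL at -1.37, XRCC4 at 0.73 and XRCC5 at 0.67. MLH3 among the higher mismatch repair genes and DNTT among the lower end joining genes lay below the background mark on all 6 arrays. Among 20 regulators of the deaminase 4 were higher and 4 lower, and 6 and 3 after centring on the array median. ID1, which blocks the E proteins that drive the deaminase gene, rose by 2.35, and ID3, of the same family, by 0.77. ID2, also of that family, fell by 0.48 (limma, Benjamini-Hochberg adjusted p = 0.00289), and ID4 changed by -0.07 and did not pass (adjusted p = 0.597). SUPT5H, an elongation factor known to bind the deaminase, fell by 0.66. The S phase list, of genes for DNA replication, had 10 of 17 higher and 1 lower (median 0.29), and 7 and 5 after cyclic loess. Of the S phase list 4 were higher without SCA2 1 or without SCA2 3, 6 without control 3, and 5 without moderation. Its median was 0.30 with each of these 3 arrays left out. Higher calls among all named genes fell too, from 3410 to 2683 without SCA2 1 and 2732 without SCA2 3. They were 2916 without control 3 and 2886 without moderation. The mitosis list had 7 of 14 higher and 1 lower. The lower gene was MKI67, a widely used proliferation marker (-0.42; limma, Benjamini-Hochberg adjusted p = 0.00298). The damage checkpoint list had 9 of 20 higher and 5 lower. The checkpoint counts were 5 and 3 without SCA2 1 or without control 3, 4 and 3 without moderation, and 6 and 5 after cyclic loess or a second quantile normalization. The checkpoint median was 0.24 without SCA2 1 and 0.33 without control 3, against 0.31 as reported. Its lower count was also 3 without SCA2 2, SCA2 3 or control 2. The part of cell cycle state in the changes of RAD52 and RAD51B was not tested.

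The genes next to the 8 on their chromosomes were looked up in the gene order of the RefSeq annotation of assembly GRCg7b. Of 15 protein-coding neighbours tested 4 were higher and 4 lower, and 7 did not pass. Over all named genes 26.2% were higher and 20.8% lower, and with so few neighbours these counts are no result about the 8 genes. POLH lies beside XPO5, a nuclear export receptor, which rose by 0.36 (SE 0.07; limma, Benjamini-Hochberg adjusted p = 0.00546) while POLH fell. RAD51B lies between ZFP36L1 and TMEM229B, which changed by -0.75 and -0.48 while RAD51B rose. UNG lies beside ALKBH2, a repair gene for alkylated bases, which rose by 0.36 against the fall of UNG. XRCC3 lies between APOPT1, which rose by 0.66, and ZFYVE21, which fell by 0.49 as XRCC3 did. UNC45B beside RAD51D rose by 0.45, and ACTR3B beside XRCC2 fell by 1.07. The other neighbours of POLH (GTPBP2, 0.21), UNG (ACACB, -0.08) and RAD51D (RFFL, -0.16) did not pass. Neither did TEX14 (-0.02) and PPM1E (0.15) beside RAD51C. For RAD52, WNK1 (0.29) and ERC1 (0.81) on its sides did not pass the test.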

How the data were processed

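RNA of bursal cells washed off the DF1 layer was measured on 6 Affymetrix chicken arrays, 3 SCA2 and 3 control, grouped by title. The authors deposited 1 intensity per probe set and array, made with RMA per the submitters' processing notes, with no version or settings in the sources used here. The deposited intensity values are linear, so log2 was taken here. Of 38535 probe sets 96 array controls were left out and dim ones kept. Platform annotation gave 27168 probe sets 1 symbol, 177 several and 11094 none. The group difference was fitted with limma 3.58.1 (R 4.3.3; lmFit, eBayes) to all 38439, Benjamini-Hochberg adjusted over them at 0.05. Changes are SCA2 minus control. Within-array log ratios used exact permutation tests (scipy 1.17.1), and figures matplotlib 3.10.9. Alternatives were a replicate block, other scalings, filters at the median and lower quartile of means, a variance trend with robust fit, array weights, no moderation, averaged probe sets, a stricter threshold and leaving out each array. A run of the fit on simulated data used independent normal noise and few changed probe sets, so it cannot vouch for the calls reported here. The number of arrays limits the precision.

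The 8 genes and all lists were chosen with earlier results of these data known. A gene is represented by its probe set of highest mean. Named from lists are some, not all, of the genes among the 4 with the smallest adjusted p, and the fixed partners BRCA2, REV1 and RAD18. SMUG1, BRCA1, RECQL5, ID4 and MLH3 were singled out after their values were seen. Neighbouring genes were chosen by position. No sequences or coordinates are given, and of the genome annotation only the gene order was used. No batch is given in the labels, so batch and group cannot be told apart.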

Additional observations from a re-analysis of the deposited data

How the results depend on the processing

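The count of called probe sets of the 8 genes, 7 of 15 as reported, lay between 4 and 6 when 1 array was left out; it was 4 without SCA2 1, without SCA2 2 and without SCA2 3, each with fewer samples in the fit. It was 3 (RAD52, RAD51B and POLH) at an adjusted p of 0.01, 5 after centring on the array median and 6 without moderation. Calls over all 38439 probe sets fell too, from 13557 to 9875, 12258 and 10211 without SCA2 1, 2 and 3. They were 13193 after centring and 10123 without moderation, and for 0.01 they are not given here. The lower counts among the 15 probe sets are therefore no result about the 8 genes. RAD52, RAD51B and POLH were called under all 16 settings, while UNG lost its call under 2, XRCC3 under 3 and RAD51D under 10 of them. The brightest POLH probe set entered every one of its calls. Averaging probe sets lost UNG, XRCC3 (limma, Benjamini-Hochberg adjusted p = 0.0736) and RAD51D (0.0731) and moved POLH to -0.44. With the replicate number as a block 5 of the 15 probe sets and 14531 of all were called, against 13557 as reported, and the RAD51D sets lost their call (0.0517 and 0.0513). The labels do not say that the numbers mark a shared bird, batch or day, so the numbers were not taken to pair the arrays. Same-numbered arrays deviated together with r = 0.41, 0.12 and 0.04 over probe sets, and SCA2 3 correlated best with control 2 (r = 0.33). These values do not decide whether the numbers pair the arrays. Among 178 pathway genes the calls were 69 higher and 29 lower as reported, 57 and 38 after a second quantile normalization and 55 and 43 after cyclic loess. Of 231 comparisons of a probe set or gene average with an alternative, 209 kept their side of the threshold, 22 lost a call, and 0 reversed. Many of the 231 were of probe sets not called as reported, which had no call to lose. All 22 losses therefore fell on the called ones. No detection calls were used, so dim sets are read only against the background mark.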
